A study of Mus musculus with 768 samples.

Results

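Asic1, Asic2 and Asic4 code for acid-sensing ion channels, and they are 3 of the 24489 genes listed by symbol in the count table of striatal nuclei. They were chosen by their measured levels in D1, D2 and interneuron nuclei and by how Asic4 stands to the genes of the patch compartment, so those values are a description and were not tested. The nuclei came from striatum of untreated C57BL/6 mice that carried H2BG with 1 of 2 Cre drivers: Oprm1-Cre, on the gene of the mu opioid receptor, was used to take in neurons of the patches, and Slc32a1-Cre, on the gene of the vesicular GABA transporter, to take in GABAergic ones. Each genotype filled 1 plate, no animals were named, and each genotype is therefore 1 sample whose nuclei are not replicates. Genotype, plate, animals and their sex cannot be told apart.

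Acid-sensing ion channels are sodium channels of the same superfamily as the epithelial sodium channel, and they open when protons build up outside the cell, for example in the synaptic cleft. They assemble as trimers. Asic1 subunits carry much of the acid-gated current of brain neurons, and Asic2 subunits join them and tune the acid sensitivity of the channel. Asic4 gives no acid-gated current when expressed by itself and has been reported to lower the surface level of Asic1 channels. In the striatum, spiny projection neurons (SPNs) form the D1 type, with dopamine receptor D1 and substance P, and the D2 type, with dopamine receptor D2 and enkephalin, and both types occur in the patches and in the matrix around them.

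The coding stretch around the ion selectivity filter is shown for the 3 members, because both their kinship and the differences that let a read be placed on 1 gene are visible there. The capitals mark the in-frame Gly-Ala-Ser codons of the filter, each with 18 bases on either side, read 5′ to 3′ on the coding strand of transcripts of the GENCODE vM21 annotation (mm10).
Asic1 (exon 10 of 12, chr15:99698644-99698688, + strand): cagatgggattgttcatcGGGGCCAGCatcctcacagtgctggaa
Asic2 (exon 8 of 10, chr11:80883443-80883487, - strand): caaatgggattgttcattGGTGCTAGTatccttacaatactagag
Asic4 (exon 8 of 10, chr1:75473006-75473050, + strand): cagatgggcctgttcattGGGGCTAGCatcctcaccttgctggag
Of these 45 bases, Asic1 shared 35 with Asic2 and 38 with Asic4, and Asic2 shared 35 with Asic4. Over the whole of these transcripts the longest run of identical bases was 32 between Asic1 and Asic2, 19 between Asic1 and Asic4 and 17 between Asic2 and Asic4.

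In the same annotation Asic1 lies at chr15:99670368-99701130 on the + strand and overlaps no other gene. Asic2 spans chr11:80880169-81968457 on the - strand and overlaps 6 other genes, 5 of them on the opposite strand. Asic4 lies at chr1:75450436-75474343 on the + strand and overlaps Gm37264 on the opposite strand. None of the overlapping genes is listed in the count table. Strand-specific counting is not stated in the labels or headers, so reads from them cannot be told apart from reads of Asic2 and Asic4.

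Of 768 wells 736 were kept as nuclei, with 29 left out from the Oprm1-Cre plate and 3 from the Slc32a1-Cre plate. Pairs of values are given in that order of plates throughout. The median depth was 169398 and 175337 reads on genes. By the balance of D1 and D2 marker scores 495 nuclei were D1-like, 300 of them in the Oprm1-Cre plate. D2-like nuclei were 24 in the Oprm1-Cre plate and 39.1% of the kept nuclei in the Slc32a1-Cre plate. Another 14 and 18 SPNs, with scores within 2 log2 units of each other, stayed undecided, 13 and 16 nuclei were interneuron-like, and 4 (1.13%) and 3 (0.787%) stayed unnamed. Drd1, listed as Drd1a, stood at 1829 and 2171 reads per 1000000 reads on genes (CPM) in D1-like against 13.6 and 15.5 CPM in D2-like nuclei. Penk, the enkephalin precursor, stood at 157.3 and 141.7 against 15000 and 17276 CPM. Both genes are among the markers of the D1 and D2 scores, so this split was fixed by the classing and is no separate support. Interneuron-like nuclei were deeper (median 219369 and 209374 reads) than D1-like (169770 and 166894) and D2-like nuclei (176438 and 182424). Of the clusters that hold the SPNs, clusters 0 and 3 had markers of another class but none of SPNs among the 10 genes that led them, so the D1-like levels are also given by cluster number. Levels are CPM of the summed reads of a class with exact Poisson 95% intervals. Shares of nuclei come with Clopper-Pearson 95% intervals. The Poisson intervals cover the counting of reads only and leave out the spread between nuclei, and neither kind covers the spread between animals. The reads carry no molecular identifiers, so copies of 1 molecule would count as separate reads and the Poisson intervals may be too narrow.

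Asic4 was read in most D1-like nuclei, in 7 of 14 and 12 of 18 undecided SPNs, and in few D2-like or interneuron-like nuclei. The sums over D1-like nuclei gave 105.3 CPM (interval 102.6 to 107.999) from 5821 reads and 119.5 CPM (115.9 to 123.2) from 4231 reads. Those over D2-like nuclei gave 1.70 CPM (0.682 to 3.50), from 7 reads, and 6.17 CPM (5.31 to 7.13). The level was thus far higher in D1-like nuclei of each plate, and the counting intervals lay well apart. The log2 ratio of D1-like over D2-like, with 5 CPM added to both, was 4.04 (counting interval 3.70 to 4.28) and 3.48 (3.35 to 3.60). Asic4 ranked 7 among 11112 genes and 8 among 10891 genes that had at least 5 CPM in either class. A ratio above 3 was reached by 0.297% and 0.101% of these genes.

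**Figure D1:**
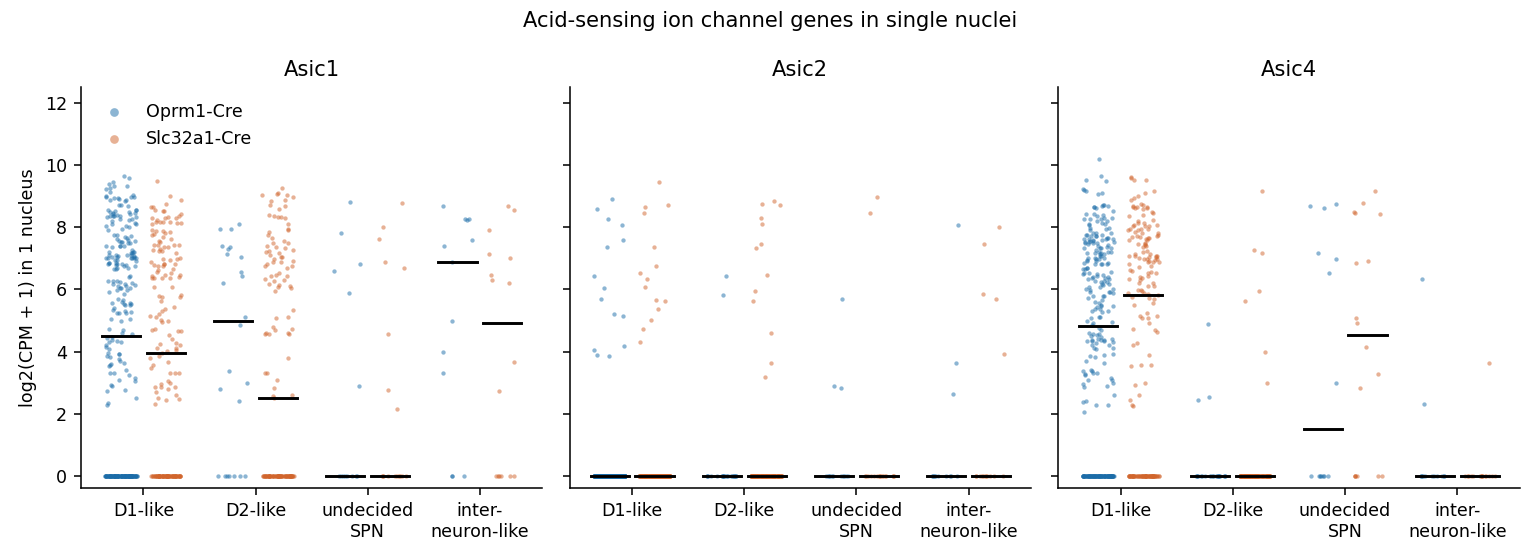
Asic1, Asic2 and Asic4 in every kept nucleus of the 4 named classes, as log2(CPM + 1) on the vertical axis, with the Oprm1-Cre plate in blue and the Slc32a1-Cre plate in orange. Each point is 1 nucleus and each black line is the median of its group. The Asic4 medians lie above 0 in D1-like and undecided nuclei and at 0 in D2-like and interneuron-like nuclei, and the Asic2 median is 0 in every group.

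Among single D1-like nuclei Asic4 ran from 0 to 1168 CPM, with a median of 26.97, in the first plate. In the second it ran up to 789 CPM, with a median of 55.05. It had a read in 66.3% (interval 60.7 to 71.7) and 63.6% (56.4 to 70.3) of D1-like nuclei. After thinning each nucleus to 50000 reads the shares were 58.7% and 58.2%, against 8.33% and 4.70% of D2-like nuclei. The share of D1-like nuclei with a read was therefore alike in the plates to within its interval. No single nucleus carried the D1-like sum, since the highest held 7.03% and 3.52% of the reads.

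Asic1 was read in both SPN types at similar levels. D1-like nuclei stood at 107.97 CPM (interval 105.2 to 110.7) and 80.8 CPM (77.9 to 83.8). D2-like nuclei stood at 83.4 CPM (74.8 to 92.7) and 90.2 CPM (86.8 to 93.7). The log2 ratio of D1-like over D2-like was 0.35 (0.21 to 0.51) and -0.15 (-0.22 to -0.08), so the plates differed in sign and neither value passed 0.5. Thinned to 50000 reads the first ratio was 0.51, just past it. Asic1 had a read in 61.3% and 61.03% of D1-like nuclei and in 70.8% (48.9 to 87.4) and 50.3% (42.04 to 58.6) of D2-like nuclei. Single nuclei reached 808 CPM among D1-like and 606 CPM among D2-like nuclei. The spread between nuclei of a class was larger than the difference between the classes: over the D1-like nuclei of the first plate the lower quartile was 0 and the upper quartile 141.9 CPM.

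Asic2 was low and sat in few nuclei. It stood at 8.57 CPM (7.82 to 9.38) and 15.3 CPM (14.1 to 16.7) in D1-like nuclei. In D2-like nuclei it stood at 5.09 CPM (3.15 to 7.78) and 16.7 CPM (15.2 to 18.2). A read was seen in 15 D1-like nuclei of each plate, 5.0% and 7.69%, and in 2 and 13 D2-like nuclei, 8.33% and 8.72%. The 3 D1-like nuclei with the most Asic2 reads held 64.98% and 61.3% of them, and single nuclei reached 475 and 695 CPM. Without the nucleus with the most reads the D1-like level was 5.96 and 11.7 CPM. The log2 ratio of D1-like over D2-like was 0.43 (0.08 to 0.75) and -0.09 (-0.23 to 0.05), and the second interval spans 0. Without the nucleus with the most Asic2 reads the ratios were 0.12 and 0.23, of like sign. Of the 21 Asic2 reads of D2-like nuclei in the first plate 15 came from 1 nucleus, which was also the D2-like nucleus highest in Asic4. Without it the D2-like level was 1.52 CPM and the ratio 1.06, past 0.5, and with 1 CPM added in place of 5 the ratio was 0.65.

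Between the SPN types Asic4 passed 0.5 in the same direction in both plates, and with 5 CPM added and all nuclei and reads in Asic1 and Asic2 passed it in neither. Among all genes 30.4% were higher in D1-like nuclei by more than 0.5 and 19.3% lower in the Oprm1-Cre plate, with its 24 D2-like nuclei, and 14.8% were higher and 10.3% lower in the Slc32a1-Cre plate. Of 10466 genes measured in both plates, 625 were higher by more than 0.5 in both.

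**Figure D2:**
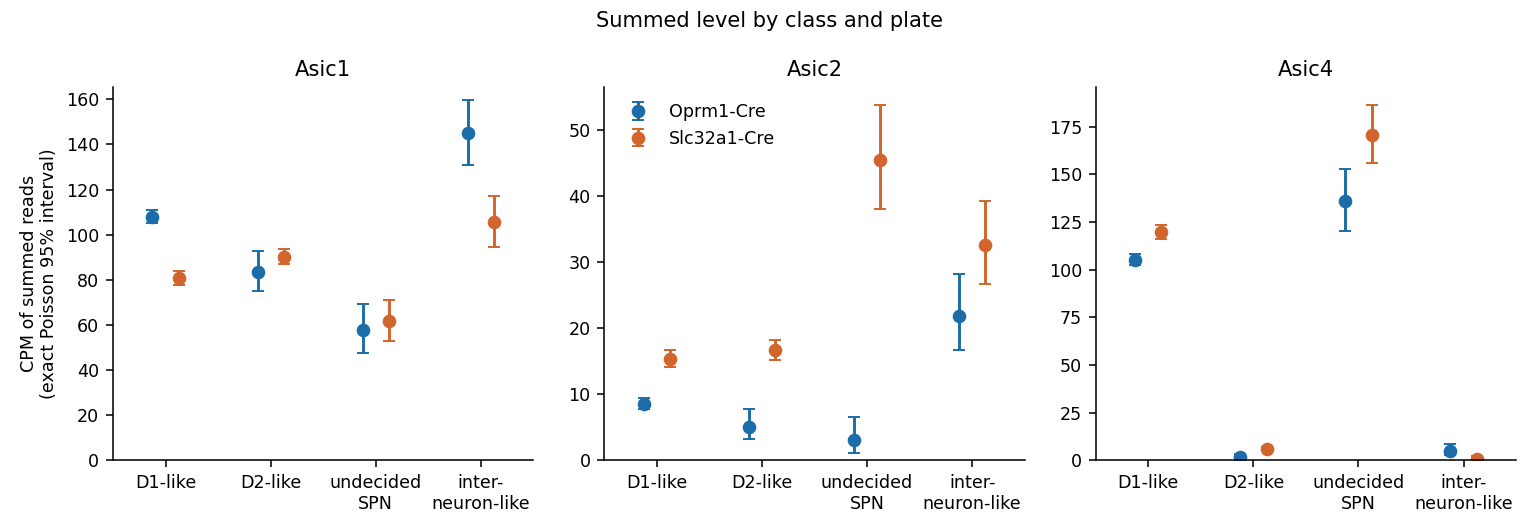
CPM of the summed reads of Asic1, Asic2 and Asic4 by class and plate, with exact Poisson 95% intervals as bars and axes that start at 0 and differ in range between panels. Asic4 reaches 105.3 and 119.5 CPM in D1-like nuclei against 1.70 and 6.17 CPM in D2-like nuclei, while Asic1 lies between 80.8 and 107.97 CPM in both SPN types.

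Per kilobase of annotated exon the order of the members within D1-like nuclei was the same in both plates. Asic4 stood at 38.6 and 43.8 CPM per kilobase over 2.73 kb, Asic1 at 18.8 and 14.1 over 5.74 kb, and Asic2 at 2.01 and 3.60 over 4.26 kb. In D2-like nuclei Asic1 led with 14.5 and 15.7 CPM per kilobase, and Asic4 was at 0.622 and 2.26. The lengths are those of all exons in GENCODE vM21, which may not be the annotation behind the counts. Of the other family members, Asic3, a subunit known from sensory neurons, had 14 and 10 reads in D1-like nuclei, 0.253 and 0.282 CPM, and none in any other class. Asic5 had no read in any kept nucleus.

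Asic4 was also read among the 32 undecided SPNs. Of the 23 whose D1 score was the higher, 16 had an Asic4 read, and the level was 184.8 CPM over 10 nuclei and 158.4 CPM over 13. Of the other 9, 0 of 4 had a read in the Oprm1-Cre plate and 3 of 5 in the Slc32a1-Cre plate, where the sum reached 205.4 CPM and the highest nucleus 437 CPM. From the highest Asic4 level down, these 3 nuclei held 2303, 2050 and 673 CPM of Drd1. In the same order Tac1, the substance P precursor, stood at 722, 9460 and 6843 CPM and Penk at 9831, 8.23 and 24.1 CPM. Only the first thus held high Drd1 and high Penk together. The others held Drd1 and Tac1 with little Penk, although the D2 score was the higher in them. The nuclei without an Asic4 read there held 388 and 31.5 CPM of Drd1 and 1233 and 12.6 CPM of Penk. The sums over all undecided SPNs, 135.7 and 170.6 CPM, were above the D1-like sums, but their medians, 3.49 and 22.9 CPM, were below the D1-like medians. Without the nucleus with the most Asic4 reads the sums were 104.1 and 125.9 CPM, the first of which lay below the D1-like sum of its plate.

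The 10 D2-like nuclei with an Asic4 read were looked at one by one. In the Slc32a1-Cre plate 55.7% of the reads came from 1 nucleus at 570 CPM, with no read of Drd1 or Tac1, the substance P precursor, and with 10868 CPM of Penk. Without it the D2-like level was 2.75 CPM (2.18 to 3.42). The other 6 nuclei lay between 6.84 and 154.5 CPM. The nucleus at 154.5 CPM also had 5379 CPM of Tac1 beside 1563 CPM of Drd2. A score of patch over matrix was taken in each nucleus as the mean log2(CPM + 1) of 8 patch genes less the mean of 7 matrix genes, Asic4 being in neither list. By this score the 7 nuclei ranked 4, 5, 10, 17, 32, 51 and 65 from the patch end among the D2-like nuclei of their plate. Cut into 4 groups by the score, D2-like nuclei gave 25.3 CPM of Asic4 in the most patch-like group, 2.42 CPM in the next, and no read in the remaining groups, where a limit of 3 reads a group allows up to 0.340 and 0.393 CPM there. Sema5b, a gene of the semaphorin family and 1 of the patch genes in the score, was read in 5 of these 7 nuclei, against 12.8% of all D2-like nuclei of the plate. In the Oprm1-Cre plate the 3 D2-like nuclei with Asic4 held 5, 1 and 1 reads and ranked 23, 19 and 24 of 24, at the matrix end, and 0 of the 3 had a Sema5b read, against 37.5% of D2-like nuclei. These nuclei are few, and the direction was not the same in the plates.

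**Figure D3:**
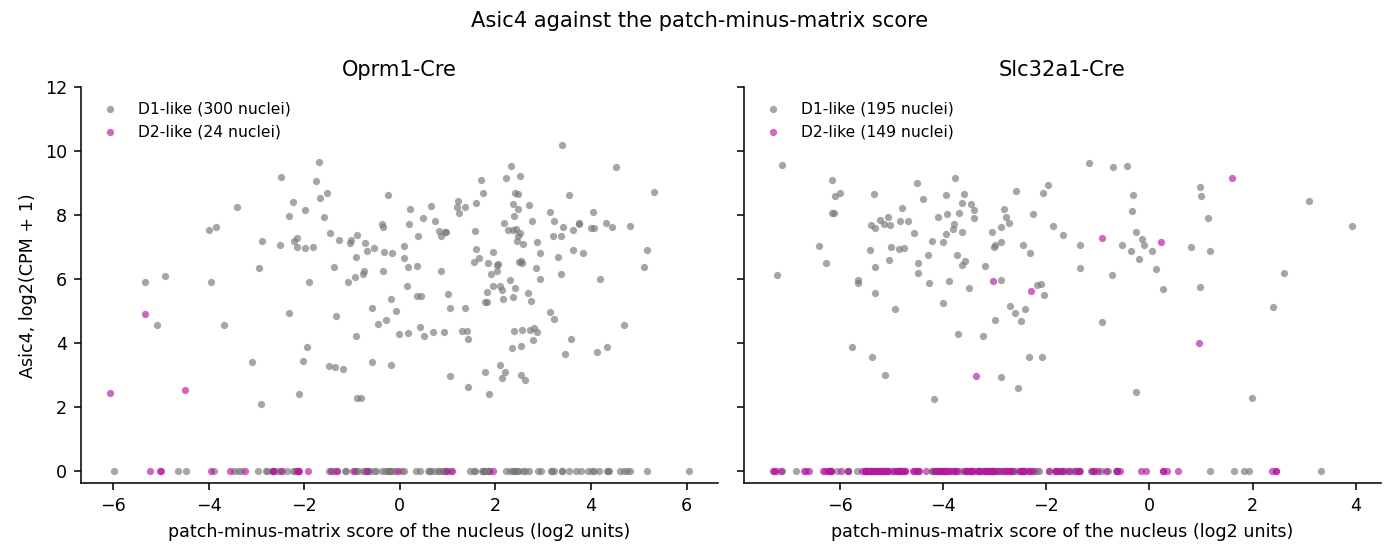
Asic4 as log2(CPM + 1) against the patch-minus-matrix score, in log2 units, of each D1-like nucleus (grey) and D2-like nucleus (magenta), 1 panel per plate. D1-like nuclei with Asic4 run along the whole score in both plates, and in the Slc32a1-Cre plate the 3 D2-like nuclei with the most Asic4, from 142.7 to 570 CPM, lie at scores from -0.918 to 1.60.

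Within D1-like nuclei the question was whether Asic4 goes with the patch genes. The score was higher in the Oprm1-Cre plate (median 1.21, against -3.18), and 7 of the 8 patch genes were higher there by more than 0.5 on the log2 scale. Their median was 1.66, beside -0.00 over all 11019 genes measured. Oprm1 itself stood at 39.1 against 2.82 CPM and Sema5b at 209.6 against 37.6 CPM. Of the 7 matrix genes 5 were lower by more than 0.5, with a median of -1.31. Between the same nuclei Asic4 gave -0.18 (-0.23 to -0.12), Asic1 0.40 (0.34 to 0.46) and Asic2 -0.58 (-0.71 to -0.46). Among all genes 14.9% were higher in the Oprm1-Cre plate by more than 0.5 and 12.1% lower, and Asic2 was the 1 member among the latter. With a stricter limit of 3 between the D1 and D2 scores Asic2 gave -0.37 and was no longer past 0.5.

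Across 4 groups of D1-like nuclei ordered by the score, Asic4 showed no steady order. From the most matrix-like to the most patch-like group it stood at 100.8, 84.3, 109.1 and 125.1 CPM in the Oprm1-Cre plate, with 75 nuclei a group. In the Slc32a1-Cre plate it stood at 130.6, 121.6, 85.1 and 139.3 CPM, with 49, 49, 49 and 48 nuclei. The most patch-like group was the highest in each plate, but the lowest was the second in one and the third in the other. The log2 ratio of the most patch-like over the most matrix-like group was 0.30 (0.20 to 0.40) and 0.09 (-0.02 to 0.20). With a limit of 3 between the D1 and D2 scores the second was -0.41, which turns its direction. By that ratio 18.9% and 23.6% of all genes were higher by more than 0.5 and 21.6% and 25.3% lower. In the same end groups Sema5b went from 46.6 to 305.96 CPM and from 0.102 to 144.4 CPM, and Epha4, a matrix gene for an ephrin receptor, from 475 to 23.6 and from 736 to 160.5 CPM, as their place in the score fixes. With the patch genes alone in the score Asic4 gave 0.71 in the Oprm1-Cre plate and -0.20 in the Slc32a1-Cre plate, so the first passed 0.5. The share of D1-like nuclei with an Asic4 read lay between 60% and 74.7% and between 57.1% and 67.3% over the groups. Median reads per nucleus in the groups ran from 157985 to 178774 and from 156769 to 196726.

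Asic1 ran from 89.4 to 125.01 CPM and from 59.6 to 110.9 CPM over the groups, and its ratio of the end groups was 0.46 and -0.12. Asic2 gave 0.27 and 1.32, but its 4 groups held 8, 1, 2 and 4 nuclei with a read in the Oprm1-Cre plate and 3, 6, 3 and 3 in the Slc32a1-Cre plate. The value of 1.32 came from 3 nuclei with a read in either end group, at 28.5 against 8.38 CPM.

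**Figure D4:**
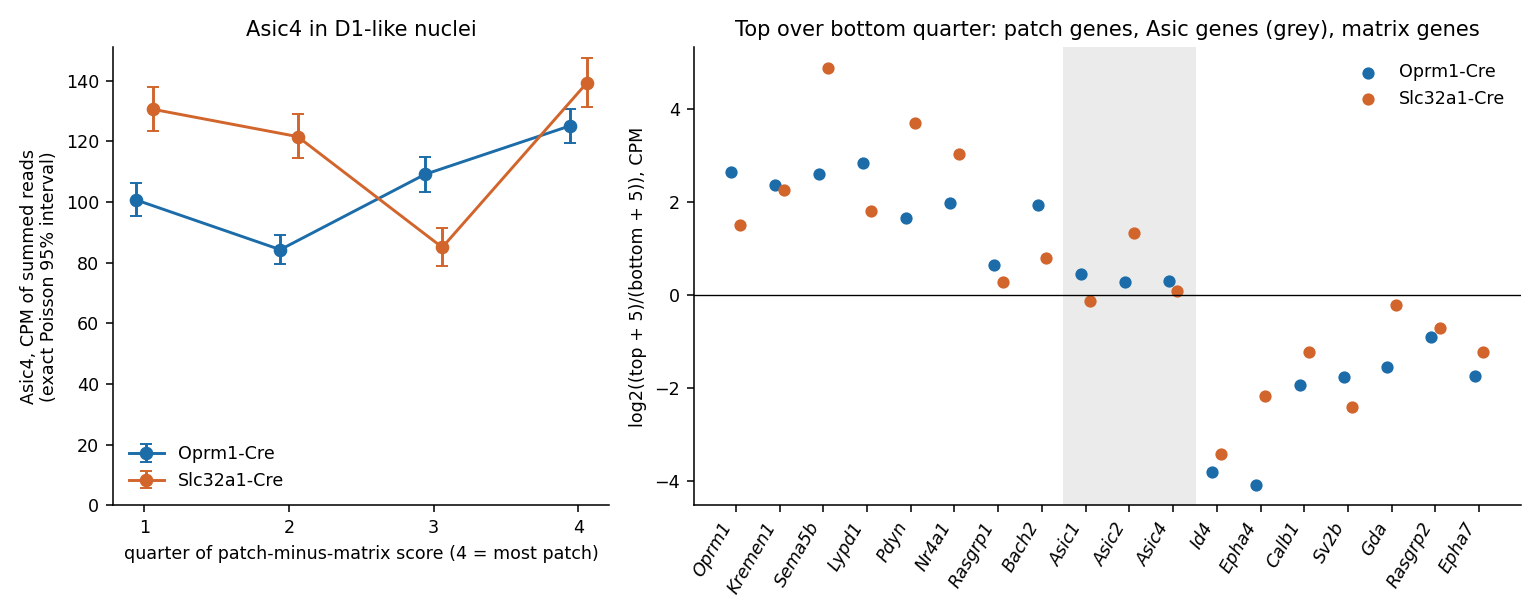
Left, Asic4 CPM of summed reads in 4 groups of D1-like nuclei by the patch-minus-matrix score (4 is the most patch-like), with exact Poisson 95% intervals. Right, the log2 ratio of the most patch-like over the most matrix-like group for the 8 patch genes, the 3 members on grey and the 7 matrix genes. Asic4 lies at 0.30 and 0.09, while the patch genes run from 0.27 to 4.87 and the matrix genes from -4.07 to -0.22, values fixed by their use in the score.

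Spearman's rank correlation over D1-like nuclei, on log2(count + 1) after thinning to 50000 reads, described the same genes one by one, with 2 and 1 nuclei too shallow to enter. In the Oprm1-Cre plate Asic4 had coefficients from -0.04 (Pdyn, the dynorphin precursor) to 0.15 (Nr4a1, a nuclear receptor), with a median of 0.05 over the 8 patch genes. In the Slc32a1-Cre plate it ran from -0.10 (Nr4a1) to 0.10 (Rasgrp1, a Ras exchange factor), with a median of 0.01. With the matrix genes the coefficient ran from -0.11 to 0.09 and from -0.03 to 0.06. Patch genes with each other had a median coefficient of 0.06 and 0.08 over 28 pairs, with highest values of 0.26 and 0.32, so coefficients were small among patch genes too. Asic4 with the reads per nucleus gave 0.12 and 0.09. Such weak values in sparse counts are no finding, and the nuclei of a plate share its preparation.

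The genes most like each member over D1-like nuclei also had low rank correlations. For Asic4 they were P4ha1 (mean coefficient of both plates 0.19), Gpx4 (0.18), Pcsk2 (0.18), Pde2a (0.18) and Rtfdc1 (0.18) among 4582 genes read in at least 25% of D1-like nuclei. For Asic1 they were Klhl2 (0.23), Dip2b (0.21), Wdr7 (0.21), N28178 (0.18) and Mbtps1 (0.18). For Asic2 they were Nell2 (0.18), Fhl1 (0.17), Tmem161a (0.17), Cttn (0.17) and Wfs1 (0.16). Of the patch genes only Pdyn and Rasgrp1 were read in enough nuclei to be among the genes compared.

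Asic1 and Asic4 were read together about as often as their separate shares give. Both had a read in 41% and 41.5% of D1-like nuclei, and the product of the separate shares was 40.7% and 38.8%. In the Oprm1-Cre plate 61 nuclei had Asic1 alone, 76 Asic4 alone and 40 neither, and in the Slc32a1-Cre plate 38, 43 and 33. The rank correlation between these genes was 0.02 and 0.05.

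By cluster, Asic4 in D1-like nuclei was lowest in cluster 4 and highest in cluster 3 in both plates. The clusters were made on variable genes of all nuclei, so these levels are a description, and a cluster was counted with at least 10 D1-like nuclei of a plate. In clusters 0, 2, 3, 4 and 5 the levels were 87.8, 75.4, 157.3, 61.1 and 118.8 CPM in the Oprm1-Cre plate. In the Slc32a1-Cre plate they were 126.8, 135.01, 147.6, 55.9 and 103.7 CPM. The plates differed most in clusters 0 and 2, where the Slc32a1-Cre plate was the higher. Yet Asic4 had a read in 60.8% and 72% of the D1-like nuclei of cluster 4. The markers of other classes that led clusters 0 and 3 included Slc6a3 of the Th list in cluster 0, read in 1.40% of its nuclei, and Vcan of oligodendrocyte precursors in cluster 3, read in 33.04%. Their part in the levels was not tested.

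In interneuron-like nuclei Asic4 was near 0, while the sums of Asic1 and Asic2 lay above those of SPN-like nuclei but rested on few nuclei. Asic4 had 14 reads in 2 of 13 nuclei (5.03 CPM, interval 2.75 to 8.44) and 2 reads in 1 of 16 nuclei (0.592 CPM, 0.0717 to 2.14). Asic1 stood at 144.8 and 105.4 CPM and Asic2 at 21.9 and 32.6 CPM. The log2 ratio over all SPN-like nuclei was -3.38 and -3.79 for Asic4, 0.45 and 0.31 for Asic1, and 1.03 and 0.76 for Asic2. Asic2 and Asic4 passed 0.5 in both plates, as did 71.5% and 67.2% of all genes in either direction, so a value of that size was common. The Asic2 level in the Oprm1-Cre plate came almost wholly from 1 nucleus with 57 of 61 reads, without which it was 1.56 CPM, below the 8.16 CPM of SPN-like nuclei, and the ratio turned to -1.0. In the Slc32a1-Cre plate it came from 5 of 16 nuclei and was 19.1 CPM without the highest, against 17.2 CPM in SPN-like nuclei, a ratio of 0.12. Without the interneuron-like nucleus with the most Asic1 reads the Asic1 ratios were 0.26 and -0.14, so the second turned its sign, and Asic4 gave -4.28 and -3.95 without its own.

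The interneuron-like nuclei were split by the marker list with the highest mean, a split made after the values of the members had been seen. Of 29 nuclei, 8 were Sst-like (Sst, Npy and Nos1 read in 8 of 8, Chodl in 4). Another 8 were Pvalb or Pthlh-like (Kit and Pthlh read in 8 of 8, Pvalb in 6, Ptprk in 1, Eya2 in none). The Th-like nuclei were 11 (Th and Trh read in 11 of 11, Prlr in 7, Slc6a3 in none). The remaining nuclei were left without a name, 1 led by Cnr1 and Htr3a with Kit, Th and Trh beside them, and 1 with Chat and Lhx8 but no Slc5a7. The Pvalb or Pthlh-like nuclei were all from the Slc32a1-Cre plate and 9 of the 11 Th-like nuclei from the Oprm1-Cre plate, so group and plate cannot be told apart.

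Asic1 was read in all 11 Th-like nuclei, from 8.95 to 409 CPM with a median of 189.5 CPM, and the sum stood at 219.02 CPM (201.02 to 238.2). It was read in 6 of 8 Pvalb or Pthlh-like nuclei, up to 237.05 CPM with a median of 41.8, and the sum stood at 75.9 CPM. In Sst-like nuclei it was read in 1 of 8, with 10 reads at 87.4 CPM, and the sum stood at 5.85 CPM (2.81 to 10.8), although these nuclei were the deepest of the 3 groups (median 250124 reads, against 223366 and 173946). Every Th-like nucleus was thus above every Sst-like nucleus but that one, which also had 428 CPM of Drd1. Without it no Sst-like nucleus had an Asic1 read. Drd1 was above 200 CPM in 5 of the 8 Sst-like nuclei, and the part of SPN RNA in their values was not tested. Outside the interneuron-like cluster, unnamed nuclei of the Oprm1-Cre plate also had Th reads. Those with 1232 and 437 CPM of Th had no Asic1 read, at depths of 141995 and 36589 reads. The one with 89.3 CPM of Th had 48.1 CPM of Asic1.

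Asic2 was read in 3 of 11 Th-like nuclei (24.5 CPM, mostly from the nucleus with 57 reads), 3 of 8 Pvalb or Pthlh-like nuclei (35.4 CPM) and 1 of 8 Sst-like nuclei (2.34 CPM). The interneuron-like nucleus with Chat and Lhx8 had 49 Asic2 reads, or 256.6 CPM. Outside the interneuron-like cluster, 2 unnamed nuclei of the Slc32a1-Cre plate carried Chat, the acetylcholine-making enzyme, at 442 and 1405 CPM and Slc5a7, the choline transporter, at 3019 and 3790 CPM. Their Asic2 levels were 285.5 and 411 CPM, from 73 and 91 reads, and their Asic1 levels 35.2 and 158.1 CPM. These 3 nuclei all held Asic2, against 8.29% of SPN-like nuclei of the same plate, and none held Asic4. They are of 1 plate and were noticed for these values. With each nucleus classed by its own markers the Asic2 ratio of interneuron-like over SPN-like nuclei in that plate was 1.97 in place of 0.76.

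**Figure D5:**
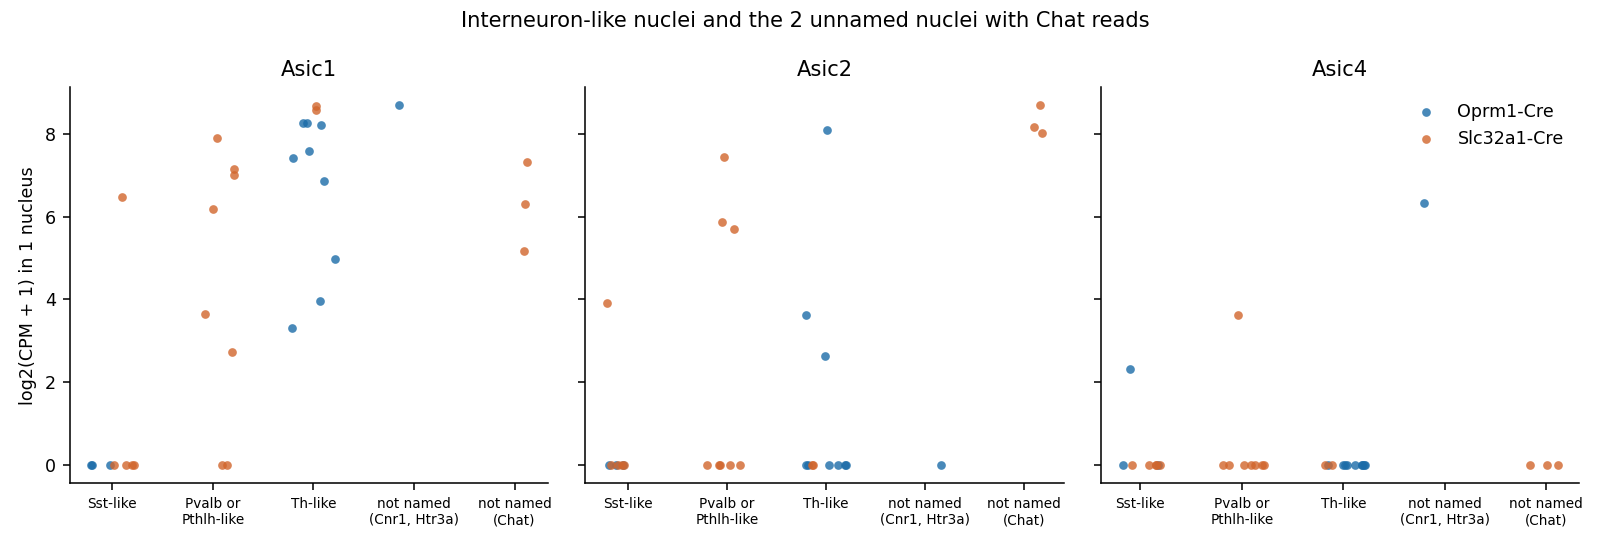
Asic1, Asic2 and Asic4 as log2(CPM + 1) in single interneuron-like nuclei by the marker list that led in them, with the 2 unnamed nuclei with Chat reads in the last column, beside the interneuron-like nucleus with Chat, and colour for the plate. Asic1 is above 0 in 11 of 11 Th-like and 1 of 8 Sst-like nuclei, and Asic2 lies between 256.6 and 411 CPM in the 3 nuclei of the last column.

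Asic4 had no read in the 11 Th-like nuclei, where a limit of 3 reads over their 2488332 reads allows up to 1.21 CPM (exact Poisson upper bound 1.48), and 1 and 2 reads in the Sst-like and the Pvalb or Pthlh-like nuclei. Its 13 remaining interneuron reads were in the nucleus led by Cnr1 and Htr3a (79.6 CPM), which also had the highest Asic1 level of the interneuron-like nuclei of its plate, 410.3 CPM.

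The RNA levels of genes for proteins that bind or modify these channels mostly stayed within 0.5 between the SPN types. Of 13 listed partners and regulators, 10 were measured in the Oprm1-Cre plate, of which 2 were higher in D1-like nuclei by more than 0.5 and 1 lower. In the Slc32a1-Cre plate 11 were measured, of which 1 was higher and 0 lower. Among all genes 30.4% were higher and 19.3% lower in the first plate, and 14.8% and 10.3% in the second. A difference from these shares was not tested. The median log2 ratio of the partners was -0.09 and 0.04, beside 0.10 and 0.03 over all genes. Prkca, a protein kinase C that acts on Asic2-containing channels together with the scaffold Pick1, stood at 81.4 and 58.1 CPM in D1-like against 51.6 and 39.4 CPM in D2-like nuclei (0.61 and 0.51). Pick1 gave 0.31 and 0.04. In interneuron-like over SPN-like nuclei 8 and 7 of the 11 measured partners were past 0.5 in either direction, shares near the 71.5% and 67.2% of all genes, with medians of -0.40 and -0.43 beside -0.15 and -0.08 over all genes. Magi1, a membrane scaffold, was higher there (2.09 and 2.17), and Akap5, which anchors kinases at the synapse, was lower (-2.33 and -5.84).

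Other proton sensors were scarce in SPNs, with 3 and 2 of 10 measured between the SPN types. In interneuron-like over SPN-like nuclei 4 of 4 measured sensors were higher by more than 0.5 in the Oprm1-Cre plate. In the Slc32a1-Cre plate 1 of 3 was higher and 1 lower, with a median of -0.22. Among all genes 71.5% and 67.2% were past 0.5 in either direction. Kcnk3, an acid-inhibited potassium channel, stood at 92.01 and 31.4 CPM in interneuron-like against 6.76 and 2.40 CPM in SPN-like nuclei (3.04 and 2.30). Of 14 genes of pH regulation 13 were measured. Between D1-like and D2-like nuclei 3 were higher and 3 lower in the Oprm1-Cre plate, and 3 were higher and 0 lower in the Slc32a1-Cre plate, with medians of 0.13 and -0.07. Over all genes 30.4% were higher and 19.3% lower in the first and 14.8% and 10.3% in the second. Slc9a7, a sodium-proton exchanger of internal membranes, was higher in D1-like nuclei of both plates (1.56 and 0.73). Slc4a4, a sodium bicarbonate cotransporter, stood at 9.70 and 173.2 CPM in interneuron-like against 479 and 420 CPM in SPN-like nuclei (-5.04 and -1.25).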

How the data were processed

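The members and all gene lists were chosen with earlier results of these data known. Per the labels, single nuclei of striatum were sequenced. The authors deposited counts of reads for each gene and well as whole numbers. The submitters' processing notes name mm10 as the build and list SAMtools and Seurat. Aligner, counter, annotation and use of strand: not given in the sources used here. The labels describe a stranded total RNA kit and no step by which single nuclei were amplified. Wells were assigned by column name, since both genotypes' labels name a table with the same plate number.

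Wells with at least 1000 genes and 20000 reads on genes were kept. The 32 wells left out held 0 reads of the members in 22834 and 25157 reads. Nuclei of both plates were clustered on 2000 variable genes, 30 components, 15 neighbours and Leiden resolution 1 (leidenalg 0.10.2, igraph 0.11.9, Python 3.11.15, seed 1). Clusters took a class other than SPN when its markers' mean log2(CPM + 1) lay more than 2 above the mean over nuclei, and were SPN-like at a mean of at least 3 over 10 SPN markers. D1-like and D2-like nuclei differed by more than 2 between the means of 7 D1 and 7 D2 markers, and an undecided nucleus under 4 for the SPN markers stayed unnamed, a limit set with the data in view. No doublet caller was run, and an alternative left out 26 possible doublets. Reads were summed per plate and class. A log2 ratio has 5 CPM added to both levels, which understates low genes, and a gene was counted as measured at 5 CPM in either sum. With 1 plate per genotype no test was made, and "past 0.5" is a size, not a test. Named genes were the members, the lists and the 5 genes of highest mean rank correlation. The calculations were tested on simulated counts.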

Additional observations from a re-analysis of the deposited data

Results flagged for a closer look

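The D1-like over D2-like ratio had unlike signs in the plates for 2 of the 3 members, and this difference was not tested, since each genotype is 1 plate. The share of all genes with unlike signs is not given here, so the count cannot be called particular to the members. For Asic1 the log2 ratio was 0.35 in the Oprm1-Cre plate and -0.15 in the Slc32a1-Cre plate. For Asic2 it was 0.43 and -0.09, the latter with a counting interval that spans 0 (-0.23 to 0.05). Without the nucleus with the most Asic2 reads the Asic2 ratios were 0.12 and 0.23. That nucleus was D1-like in the Oprm1-Cre plate and D2-like in the Slc32a1-Cre plate, which fixes the direction of each move. The Oprm1-Cre values rest on 24 D2-like nuclei, with 21 Asic2 reads, and the Slc32a1-Cre values on more D2-like nuclei, with 494 Asic2 reads.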

How the results depend on the processing

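The 19 main values of the members were recomputed under the alternative settings. Of these values 40 lay outside the counting interval of the main value (0.05 either way for rank correlations) with no reversal of a value past 0.5, and 1 reversed such a value: in the Oprm1-Cre plate the Asic2 ratio of interneuron-like over SPN-like gave -1.0 without the interneuron-like nucleus with the most Asic2 reads. Asic4 stayed above 3 in D1-like over D2-like nuclei and below -3 in interneuron-like over SPN-like nuclei in every setting run. The values outside the interval follow. The cause was not tested. D1-like over D2-like, Oprm1-Cre plate: Asic1 gave 0.17 scaled to spike-in reads and 0.51 thinned to 50000 reads. With 1 CPM added Asic4 gave 5.30 and 4.07 in the Oprm1-Cre and Slc32a1-Cre plates. Without the D2-like nucleus highest in Asic4, a setting chosen after seeing the data, Asic4 gave 4.32 and 4.01, and Asic2 gave 1.06 in the Oprm1-Cre plate. In the Slc32a1-Cre plate Asic4 gave 3.62 without possible doublets, Asic1 -0.06 and Asic2 -0.24 as means over nuclei, and Asic1 -0.07 and Asic2 0.23 without the nucleus with the most reads of the gene, also chosen after seeing the data. Oprm1-Cre over Slc32a1-Cre in D1-like nuclei: with a score limit of 3 Asic1 gave 0.31, Asic2 -0.37 and Asic4 -0.04. Scaled to spike-in reads Asic1 gave 0.24 and Asic4 -0.33. Asic2 gave -0.77 with 1 CPM added, -0.81 thinned and -0.89 without its top nucleus. Asic4 gave -0.24 without possible doublets, -0.29 as a mean over nuclei, -0.28 thinned and -0.27 without its top nucleus. Interneuron-like over SPN-like: with each nucleus classed alone Asic1 gave 0.61 and 0.51 and Asic2 1.97 in the Slc32a1-Cre plate. Asic4 gave -4.06 and -5.52 with 1 CPM added and -3.97 thinned in the Slc32a1-Cre plate. There Asic1 gave 0.58 and Asic2 1.0 scaled to spike-in reads. Without the interneuron-like nucleus with the most reads of the gene, again chosen after seeing the data, Asic1 gave 0.26 and -0.14, Asic4 -4.28 and -3.95, and Asic2 0.12 in the Slc32a1-Cre plate. Asic4 from the bottom to the top of the patch score: with patch genes alone 0.71 in the Oprm1-Cre and -0.20 in the Slc32a1-Cre plate, and -0.41 in the latter with a score limit of 3. No paired analysis was possible because no result comes from a test and each genotype is 1 plate. Few reads limit Asic2 (21) and Asic4 (7) among the D2-like nuclei with the Oprm1-Cre label.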
